A study of Caenorhabditis elegans with 4 samples.

Results

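The sra, srab, srb and sre genes of the nematode Caenorhabditis elegans form the Sra superfamily of chemoreceptors, and their RNA was followed here in adult worms. Genes were taken by symbol: a probe belonged to a family when its only gene symbol was sra, srab, srb or sre with a number. This gave 117 probes for 107 genes of the 14943 genes with a probe of their own, namely 30 sra, 20 srab, 15 srb and 42 sre genes. The current gene table lists 141 genes with these symbols, 17 of them pseudogenes, and the other genes were not analysed here.

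RNA from 4 preparations (preps) of adult wild-type worms was hybridised on 4 two-colour arrays, each against one wild-type mixed reference RNA. Nothing was said of strain, growth or age beyond "adult", nor of what was mixed in the reference or whether each prep was its own culture. Adult RNA was in channel 2 and reference RNA in channel 1 of every array, so a dye effect of a gene cannot be told apart from a difference in RNA. A positive log2 ratio is read as likely higher in adults than in the reference, because the numerator of the deposited ratio is not stated.

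Chemoreceptors of this superfamily are multi-pass membrane proteins of the G protein-coupled type. They sit mainly in the cilia of sensory neurons, where a bound chemical activates a G protein and then cyclic GMP-gated or TRPV channels. Many are expressed in a handful of cells, and reporter studies in this species placed some in a single neuron pair, so their RNA is a small part of whole-worm RNA. The families lie largely in tandem arrays of related genes.

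On each array 21243 to 21501 of 21632 probes had a value, and pairs of arrays correlated over all probes with Pearson's r of 0.659 to 0.755. Preps 3 and 4 share a date in their titles, and preps 1 and 2 carry consecutive dates of the next month. The title of prep 2 has the letters SL where the others have SJ. What the dates and letters stand for is not stated. Of the 107 genes, 101 had a value on all 4 arrays and 5 on 3 arrays. The other one, sre-1, had values on preps 2 and 3 only (0.79 and 0.30) and was not tested, which left 106 genes. Signal intensities were not used here, so it is unknown which spots were near background and which way that moved their ratios. In whole worms, fewer cells of a type and less RNA per cell cannot be told apart.

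Most of the superfamily stood near a log2 ratio of 0, and a few genes stood far from it. Of 106 genes tested, 7 were called positive, 6 negative and 93 were not called (limma, Benjamini-Hochberg adjusted p under 0.05 over all genes). Among all 14935 genes tested the same rule called 23.2% positive and 21.2% negative, so both shares in the superfamily, 6.6% and 5.66%, were below the background. At an unadjusted p under 0.05, 20 of the 106 passed, against 7897 of all 14935 genes. The mean ratio was under 0.5 in size for 89 genes (84%), against 56.7% of all genes, and at least 1 in size for 6 genes (5.66%), against a background of 14.4%. The 6 were srb-13, sra-38 and sre-23 on the positive side and srb-11, sre-6 and srb-1 on the negative side. Among 958 tested chemoreceptor genes of other families, 84.6% of means were under 0.5 in size and 2.09% at least 1. The median of the 106 means was 0.12, against 0.064 for all genes.

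**Figure D1:**
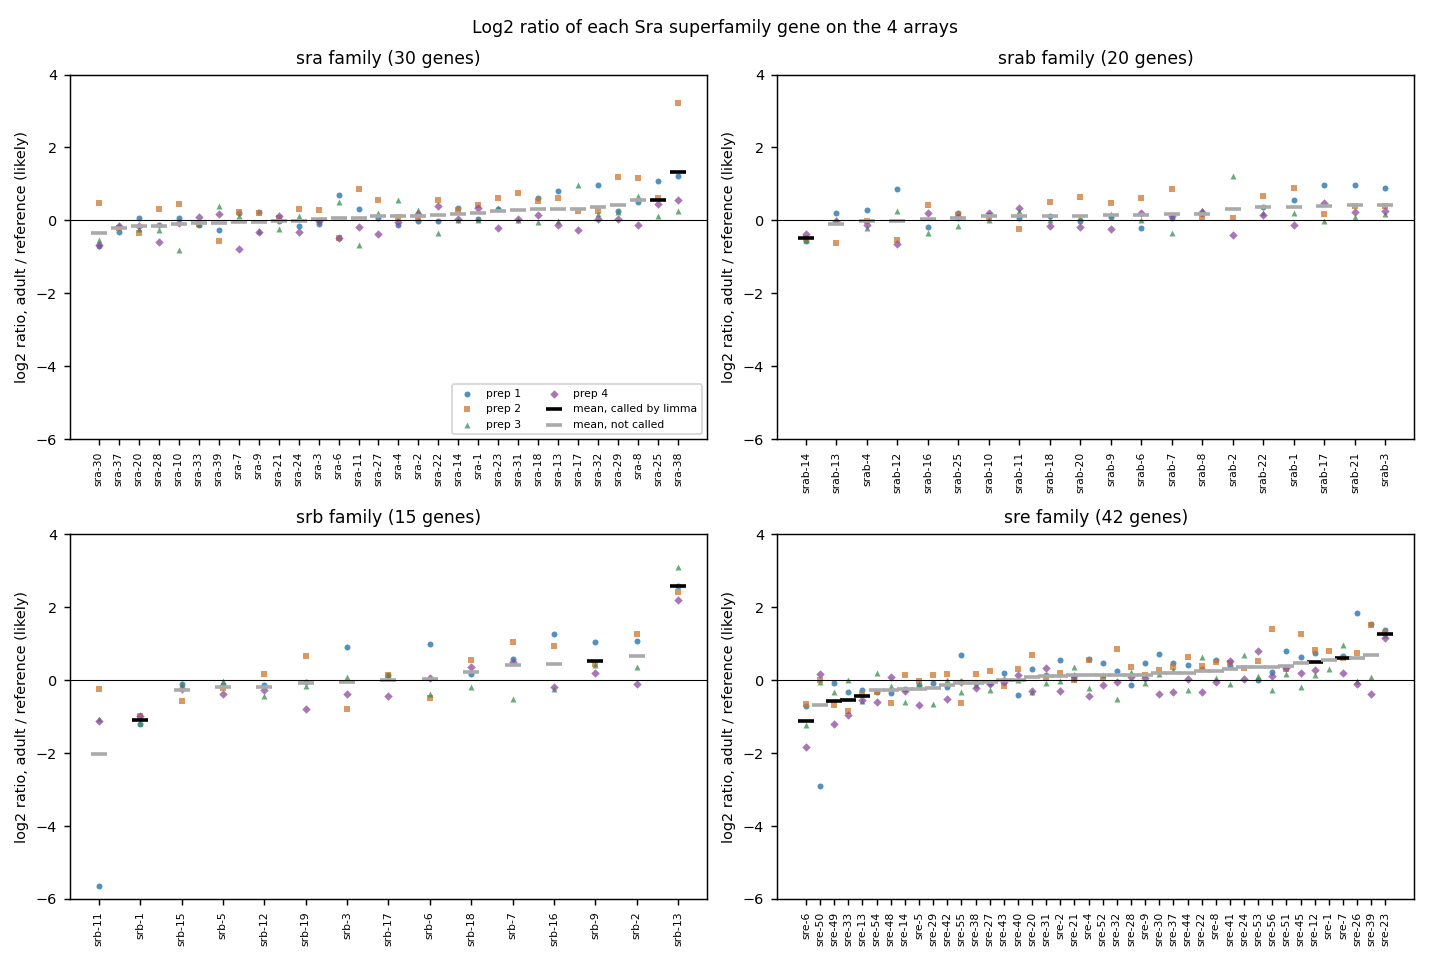
Log2 ratio (adult over reference, likely; y axis) of every gene of the sra, srab, srb and sre families (x axis, ordered by mean) on each of the 4 arrays (points). Bars mark the mean over arrays, black where limma called the gene and grey where it did not or, for sre-1, where it was not tested; srb-13 has the highest mean, 2.57, and srb-11 the lowest, -2.02.

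In the srb family, 2 of 15 genes (13.3%) were called positive and 1 (6.67%) negative, against 23.2% and 21.2% of all genes. The family held both the highest and the lowest mean of the superfamily, and the lowest, that of srb-11, owed much to prep 1. Without prep 1, sre-6 at -1.242 and srb-1 at -1.055 lay below srb-11 at -0.817. The gene srb-13 had log2 ratios of 2.57, 2.42, 3.09 and 2.19 on preps 1 to 4. All 4 values lay above every value of the other 14 srb genes, whose highest was 1.26. Its mean was 2.57 ± 0.38 (SD, n = 4), a 5.94-fold ratio (limma adjusted p = 4.3e-05). It ranked 45th from the top of 14935 genes, and none of 958 tested chemoreceptor genes of other families had a higher mean.

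The gene srb-1 was negative and close to constant between arrays, with -1.20, -0.989, -1.18 and -0.997. Its mean of -1.09 ± 0.12 (SD, n = 4) is a 2.13-fold lower level in adults (limma adjusted p = 0.00051). The third called gene, srb-9, is annotated as a pseudogene and had 1.04, 0.44, 0.41 and 0.20. Its mean was 0.52 ± 0.36 (limma adjusted p = 0.036), and the call was lost without prep 1, where the mean was 0.35 (adjusted p = 0.13), without prep 2 (adjusted p = 0.077) and without prep 3 (adjusted p = 0.076). A further probe shared by srb-9 and srb-8 was left out of the genes.

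Other srb genes differed widely between arrays. For srb-11 the ratios were -5.64, -0.26, -1.07 and -1.13, all negative, and the mean of -2.02 ± 2.45 was not called (limma adjusted p = 0.057). Prep 1 decided that value: without it the mean was -0.82, and the gene was called (adjusted p = 0.014). It was also called without prep 2, at -2.61 (adjusted p = 0.029). The pseudogene srb-2 had 1.08, 1.26, 0.35 and -0.10, with a mean of 0.65 ± 0.64 (limma adjusted p = 0.051), and was called at 0.90 without prep 4 (adjusted p = 0.019). The gene srb-16 had 1.26 and 0.94 on preps 1 and 2 but -0.24 and -0.20 on preps 3 and 4, so its mean of 0.44 ± 0.77 was not called (limma adjusted p = 0.21).

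The pseudogene srb-7 had 0.57, 1.05, -0.51 and 0.49, and it was called only without prep 3, at 0.70 (limma adjusted p = 0.026). The receptor gene srb-6, reported in the sensory neurons ADL, ADF and ASH and in the phasmid neurons of the tail, had 0.98, -0.48, -0.38 and 0.054. Its mean of 0.043 ± 0.67 was not called (limma adjusted p = 0.90), and its sign turned when the arrays were centred. The remaining srb genes, srb-3, srb-5, srb-12, srb-15, srb-17, srb-18 and srb-19, had means between -0.26 and 0.22 and none was called.

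The 15 srb genes lie on 5 chromosomes, 8 of them on II. The family's lowest gene, srb-11, lies on III, while srb-13 and srb-1 are near neighbours on II. In the RefSeq gene order (assembly WBcel235), srb-16, srb-12, srb-13, srb-5, srb-4, srb-3, srb-2 and srb-1 form 1 cluster on chromosome II with at most 3 other genes between neighbours. The gene next to srb-13 on one side, srb-12, had -0.15, 0.17, -0.44 and -0.28, a mean of -0.18 ± 0.26. On the other side, srb-5 had a mean of -0.19 ± 0.15. That value averages 2 probes of opposite sign on every array, with means of 0.37 and -0.74. Neither neighbour was called (limma adjusted p = 0.37 and 0.30), and no value of either reached the lowest value of srb-13. Across the cluster the means of the 7 genes tested spanned -1.09 to 2.57 with a median of -0.046.

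**Figure D2:**
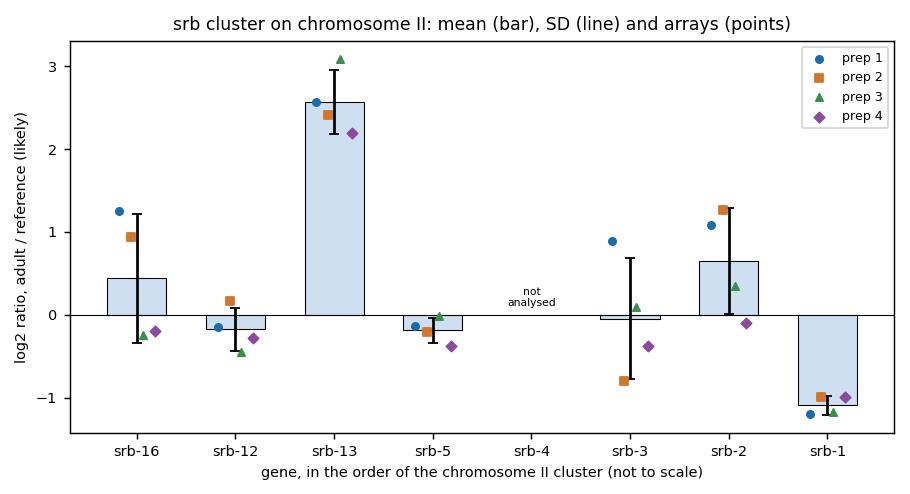
Mean log2 ratio (bars; y axis, adult over reference, likely) with SD over 4 arrays (lines) and each array (points) for the srb cluster on chromosome II, genes in RefSeq order (x axis, not to scale). The bar of srb-13, at 2.57, stands between srb-12 at -0.18 and srb-5 at -0.19, and srb-1 at -1.09 ends the cluster. The srb-5 bar averages 2 probes of opposite sign, and srb-4 was not analysed.

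The srb values were set beside those of sperm genes. The 30 msp genes, which encode the major sperm proteins that drive crawling of nematode sperm and signal to oocytes, had array medians of 2.77, 2.29, 3.00 and 2.00 on preps 1 to 4. The value of srb-13 differed from that median by -0.19, 0.13, 0.097 and 0.20. Both were highest on prep 3 and lowest on prep 4. The mean of srb-13 was exceeded by 14 of the 30 msp means, the largest being those of msp-10 at 3.00 ± 0.72 and msp-36 at 2.94 ± 0.42. A second list of 44 tested sperm genes (spe, fer, ssp, nspd and others) had array medians of 1.12, 0.95, 1.05 and 0.98, and 2 of its means exceeded srb-13, those of ssp-10 at 2.77 ± 0.37 and nspd-2 at 2.76 ± 0.59. With 4 arrays no correlation between srb-13 and these lists was computed.

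No other srb gene had a mean above 0.65. The srb-16 mean was below those of 29 of 30 msp genes and 32 of 44 other sperm genes, and on preps 3 and 4 its ratio was negative. The means of srb-12 and srb-5 lay below all 44 other sperm genes, whose lowest mean was -0.171. For srb-5 this holds for the average of 2 probes, whose means were 0.37 and -0.74. Limma called 29 of 30 msp genes (96.7%) and 32 of 44 other sperm genes (72.7%) positive and none negative. It called 2 of 15 srb genes (13.3%) positive, below the 23.2% of all genes. The msp genes are near-identical in sequence and can share signal.

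**Figure D3:**
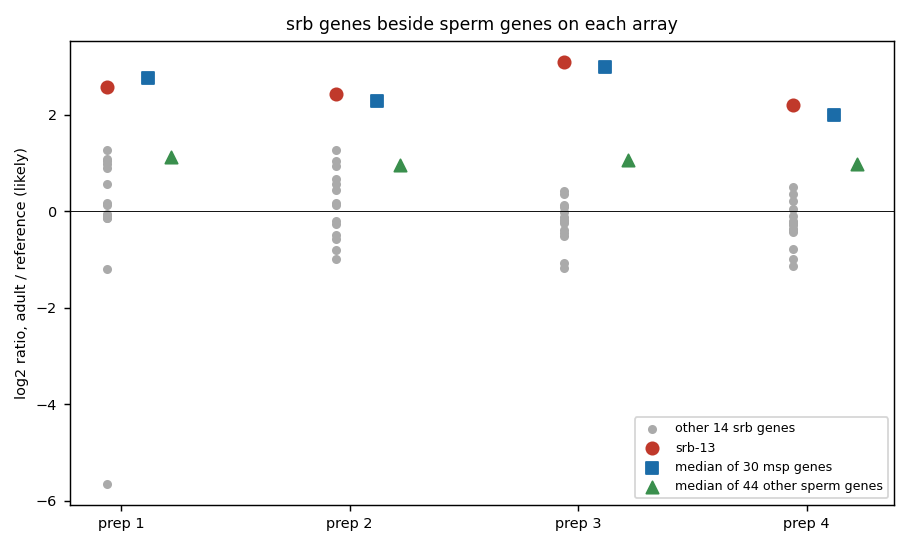
Log2 ratio (y axis, adult over reference, likely) on each array (x axis) for srb-13, the other 14 srb genes, and the medians of 30 msp genes and 44 other sperm genes. On every array srb-13, between 2.19 and 3.09, lies within 0.20 of the msp median and above all other srb genes.

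The sra family had 2 of 30 genes (6.67%) called positive and none negative, against 23.2% and 21.2% of all genes. Its median was 0.12 (array medians varied with an SD of 0.16). At an unadjusted p under 0.05, 3 of the 30 sra genes passed, against 7897 of all 14935 genes. The gene sra-38, on the X chromosome, had 1.23, 3.23, 0.26 and 0.57. All arrays were positive, but prep 2 carried much of the mean of 1.32 ± 1.33 (2.5-fold; limma adjusted p = 0.034). Without prep 2 the mean was 0.69 (adjusted p = 0.045), and with a robust prior the call was lost (adjusted p = 0.065). Its neighbours in the gene order, sra-37 and sra-39, had means of -0.20 ± 0.09 and -0.064 ± 0.42 and were not called.

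The other called sra gene was sra-25 on chromosome I, with 1.07, 0.61, 0.13 and 0.44 and a mean of 0.56 ± 0.39 (limma adjusted p = 0.031). That call did not hold when prep 1, 2 or 4 was left out (adjusted p of 0.11, 0.087 and 0.065). It is listed first in a cluster of 9 sra genes on chromosome I, of which 8 were tested, with means between -0.16 and 0.56. The largest cluster, 11 sra genes on chromosome II from sra-1 to sra-6, held 8 tested genes with means between -0.050 and 0.56, none of them called.

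A set of 7 sra genes was chosen as having a cell known from reporter studies, and it is not a full survey of such studies. None of the 7 was called, and their means lay between -0.085 and 0.32. The gene sra-6, widely used to mark the nociceptive neuron ASH and also seen in ASI, had 0.70, -0.49, 0.52 and -0.48, a mean of 0.064 ± 0.64 with preps on both sides of 0. Of the ASK genes, sra-9 had 0.22, 0.20, -0.28 and -0.31, and sra-7 had 0.21, 0.24, 0.13 and -0.78. The gene sra-11, seen in the interneuron AIY, had 0.30, 0.87, -0.68 and -0.18. For sra-13, a receptor of the olfactory neurons AWA and AWC that dampens Ras signalling, the ratios were 0.80, 0.61, -0.012 and -0.11. Only sra-1, reported in the spicule neurons of males, was positive on all 4 arrays, with 0.048, 0.42, 0.003 and 0.34, and a mean of 0.20 ± 0.21 (limma adjusted p = 0.29). The last of them, sra-10, had 0.073, 0.46, -0.80 and -0.076. In 6 of these 7 genes the arrays disagreed in sign.

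The srab family was the narrowest, with all 20 means between -0.49 and 0.435, and its median was 0.13 (SD over arrays 0.10). A positive mean was found for 16 of 20 genes (80%), against 54.4% of all genes, yet none was called positive. The share was 63.3% in sra, 65.9% in sre, 46.7% in srb and 68.2% over the chemoreceptor genes of other families. The 1 called gene, srab-14, was negative, with -0.58, -0.49, -0.52 and -0.37. Its mean of -0.49 ± 0.09 (limma adjusted p = 0.018) rested on a small spread, and the call did not hold when prep 1, 2 or 3 was left out (adjusted p of 0.056, 0.064 and 0.055). It is also the only one of the 20 that lies on chromosome II, since the other 19 lie on V. Those 19 had a median of 0.14 and means from -0.10 to 0.435.

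In the sre family 3 of 41 genes (7.32%) were called positive and 4 (9.76%) negative, against 23.2% and 21.2% of all genes. The family median was 0.13 (SD over arrays 0.17). The gene sre-23, on chromosome I, had 1.36, 1.29, 1.24 and 1.15. These lay above 1 on every array, and the mean of 1.26 ± 0.09 is a 2.4-fold ratio (limma adjusted p = 0.00024). Its SD between arrays was under the median SD of the superfamily, 0.35. On the other side sre-6, on chromosome V, had -0.71, -0.65, -1.23 and -1.84, with a mean of -1.11 ± 0.55, 2.16-fold lower in adults (limma adjusted p = 0.0039). All its arrays were negative, with preps 3 and 4 lower than preps 1 and 2.

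The other called sre genes had smaller means, and each lost its call without at least 2 of the preps. Positive were sre-7 at 0.61 ± 0.32 (limma adjusted p = 0.017) and sre-12 at 0.50 ± 0.34 (adjusted p = 0.038), both positive on all 4 arrays. Negative were sre-49 at -0.57 ± 0.49 (limma adjusted p = 0.044), sre-33 at -0.54 ± 0.45 (adjusted p = 0.048) and sre-13 at -0.45 ± 0.14 (adjusted p = 0.029). Of these, sre-33 had 1 array above 0, at 0.007 on prep 3. Over the superfamily, the calls of srb-13, sre-23, srb-1 and sre-6 held under all 13 alternatives in which they were refitted, leaving out each prep included. That of sra-38 held in 12 and was lost under the robust prior. These genes each have 1 probe and values on all 4 arrays. The alternatives on array minimums and on probes therefore left their own values unchanged, and those settings tested little.

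The 27 tested sre genes of chromosome II had means between -0.69 and 0.69 with a median of 0.10. Their lowest mean, that of sre-50, came from 1 array: the values were -2.91, 0.013, -0.041 and 0.18. Its cluster of 8 sre genes, from sre-50 to sre-52, had a median of 0.026 and 1 called gene, sre-49. The gene with the highest mean, sre-39, had 1.53, 1.51, 0.087 and -0.38, and its mean of 0.69 was not called (limma adjusted p = 0.12). Without prep 4 it was called, at 1.04 (limma adjusted p = 0.037). Both sre-50 and sre-39 were picked after their values were seen.

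**Figure D4:**
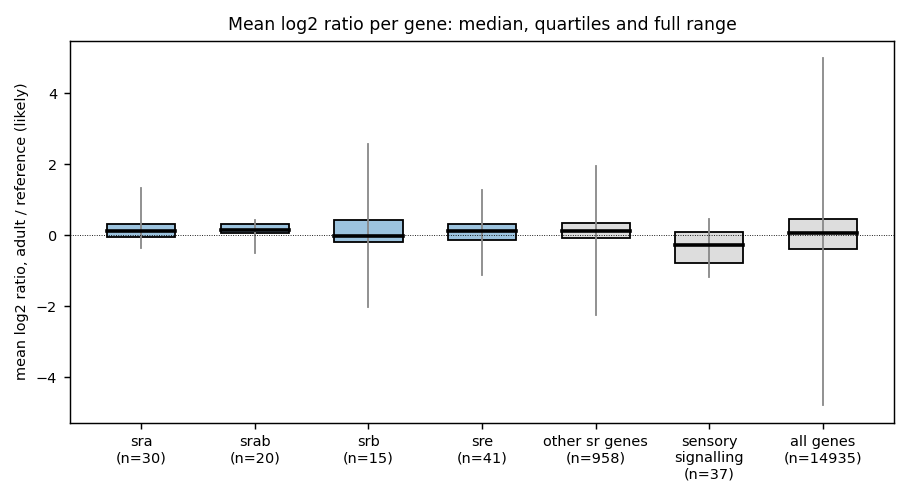
Mean log2 ratio per gene (y axis, adult over reference, likely) for the 4 families, other chemoreceptor (sr) genes, the sensory signalling list and all genes (x axis). Thick lines are medians, boxes the quartiles and thin lines the full range. The srb family reaches from -2.02 (srb-11, whose mean owes much to prep 1) to 2.57 and the srab family from -0.49 to 0.435.

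The arrays shared a pattern across the superfamily. The median of the 106 genes was 0.19 on prep 1 and 0.29 on prep 2, but 0.008 on prep 3 and -0.057 on prep 4, and the number of genes above 0 was 66 of 102, 81 of 106, 55 of 106 and 46 of 105. Of the 101 genes with all values, 79 (78.2%) had a higher average on preps 1 and 2 than on preps 3 and 4, which share the title date. The share was 50% over all genes and 77.8% (707 of 909) over the other chemoreceptor families. All-gene medians were 0.075, 0.085, 0.001 and 0.024. Preps 1 and 2 have consecutive, later dates in their titles, so the split follows the title dates. The dates were not tested as a source of this pattern.

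**Figure D5:**
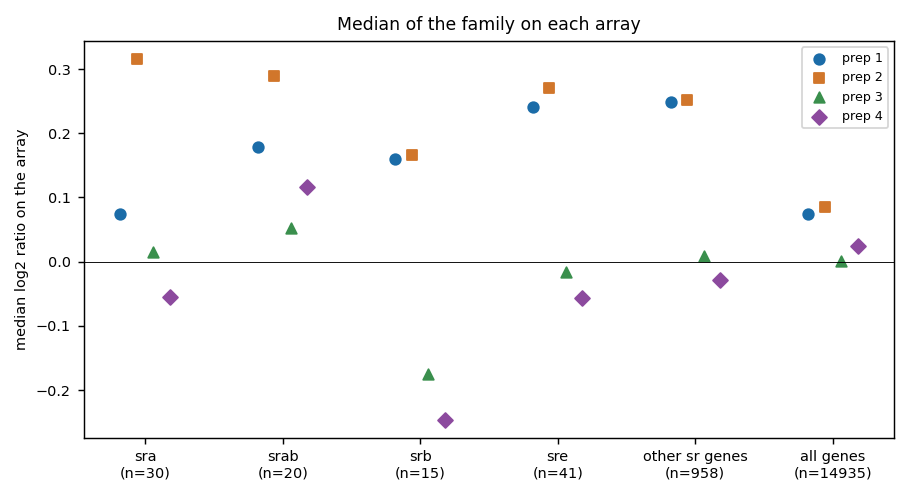
Median log2 ratio (y axis) of each family, of other chemoreceptor (sr) genes and of all genes (x axis) on each array (points). In all 4 families preps 1 and 2 lie above preps 3 and 4, as in the other chemoreceptors, while the all-gene medians lie between 0.001 and 0.085.

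Over the 101 genes with all values, Pearson's r between 2 arrays ran from 0.392 to 0.598. It ran from 0.135 to 0.331 over the other chemoreceptor genes and from 0.695 to 0.79 over all genes. Without the 6 superfamily genes of mean size at least 1, r over the remaining 95 ran from only 0.03 to 0.318. The other lists were not trimmed in this way. These correlations are across genes that share arrays and partly share sequence, and they are descriptions. One sign on all 4 arrays was found for 29 of 101 genes (28.7%), against 236 of 909 other chemoreceptor genes (26%) and a background of 58.1%. For the 10 genes with 2 probes, the median gap between probe means was 0.41, against 0.26 over all genes with several probes. The probes of srb-5 disagreed on every array, with 0.32, 0.59, 0.15 and 0.42 for one and -0.58, -1.02, -0.19 and -1.18 for the other, so its value is uncertain. Probes may also bind related family members.

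In the other chemoreceptor families, the shares of calls were of similar size, without a test of the difference. Of their 958 tested genes 65 (6.78%) were called positive and 33 (3.44%) negative, with a median of 0.13. A list of sensory signalling genes was also read, which is not limited to genes that act only in sensory neurons. It holds odr-10, itself a chemoreceptor gene and among the negative calls. Of 37 tested sensory signalling genes, 13 (35.1%) were called negative and 1 (2.7%) positive, against 21.2% and 23.2% of all genes, and the median was -0.27 (SD over arrays 0.073). The list was not compared with the receptors by a test.

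Among receptor trafficking genes, odr-4, needed to bring receptors to the cilia, had 0.48, 0.44, 0.24 and 0.72. It was the 1 positive call of the list, at 0.47 ± 0.20 (limma adjusted p = 0.029), and was lost without prep 1, 2 or 4. Its partner odr-8 had 0.15 ± 0.27 and was not called. Of the downstream genes, the G protein alpha subunit gene odr-3 had -0.87 ± 0.40 (limma adjusted p = 0.0051) and the receptor kinase gene grk-2 had -0.94 ± 0.69 (adjusted p = 0.015). Without prep 2, grk-2 was not called, and its mean was -0.75 (limma adjusted p = 0.057). For the cyclic nucleotide-gated channel, tax-2 had -0.51 ± 0.33 (limma adjusted p = 0.034), a call lost without prep 2, 3 or 4, and tax-4 had -0.37 ± 0.23 (adjusted p = 0.072). After centring, tax-4 was called, at -0.42 (limma adjusted p = 0.045). The TRPV channel genes osm-9 and ocr-2 had 0.089 ± 0.15 and -0.43 ± 0.72 and were not called, but ocr-2 was called without prep 1, at -0.71 (adjusted p = 0.031).

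The largest means in size of that list were those of rgs-3, a regulator of G protein signalling, at -1.19 ± 0.27, and gcy-28, a receptor guanylyl cyclase gene, at -1.09 ± 0.55. The diacetyl receptor gene odr-10, a chemoreceptor outside the Sra superfamily, had -1.64, -0.74, -0.80 and -1.17, a mean of -1.09 ± 0.41 (limma adjusted p = 0.002). Lists of cilium and synapse genes were read as well. Of 47 cilium genes 20 (42.6%) were called negative and none positive (median -0.44). In the synapse list, which is also not limited to sensory neurons, 31 of 39 genes (79.5%) were called negative and 1 (2.56%) positive (median -0.77). Over all genes these shares were 21.2% negative and 23.2% positive. Of 11 genes of male ciliated neurons 3 (27.3%) were called negative, near the 21.2% of all genes, and none positive. Germline genes were called positive in 26 of 28 cases (92.9%) and oocyte genes in 19 of 23 (82.6%), against 23.2% of all genes. Neither list had a negative call. The part that tissue shares play in the receptor values was not tested.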

How the data were processed

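RNA of 4 adult preps was compared with a mixed reference on 4 two-colour arrays. Measured probes have 1 deposited log2 ratio on each array. That scale follows from the values: taken out of log2, 99.93% to 99.995% of spots give 3-decimal ratios (tolerance 1e-05). What the authors did before depositing (scanner, dyes, spot filter, centring, normalization) is not stated in the labels or the table. Array medians lay between -0.0043 and 0.0496, and values were used as deposited.

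GEO's platform annotation named 16450 probes with 1 symbol, left 4935 unnamed and gave 247 several symbols. Symbols were updated through RefSeq (assembly WBcel235), by gene ID for 16360 and by accession for 5 probes, and 85 kept theirs. Of the 107 members 106 matched by gene ID and 1 did not. Probes of a gene were averaged on each array. The limma package (version 3.58.1, R 4.3.3) was used for genes with 3 or 4 values (intercept, lmFit, eBayes, two-sided against 0, Benjamini-Hochberg over 14935 genes, threshold 0.05). The fit was tested on simulated data.

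The test leaves out the spread of the reference, and p-values measure only the spread between these preps, which may be technical. The number of arrays limits the precision.

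Members and lists were chosen with earlier results of these data known. The text names every srb gene, a chosen set of members with a known neuron, and in each of the other families up to 5 called genes of each sign with the largest means. From the msp, other sperm and signalling lists it names the 2 members with the largest means in size, and 9 fixed signalling genes. Alternatives were centring, scaling, 2 or 4 arrays as the minimum, a robust prior, array weights, the title date as a block, the median of probes, genes with 1 probe, a minimum size, and leaving out each prep. The block's correlation was estimated by restricted maximum likelihood on a grid, chosen after seeing the data, because limma's duplicateCorrelation gives no estimate for 3 dates over 4 arrays.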

Additional observations from a re-analysis of the deposited data

Results flagged for a closer look

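Each of the 101 genes with values on all 4 arrays, each family median, the median of the superfamily and those of both sperm lists were tested for 1 array far from the other 3 (Dixon's test). Of 108 such sets 7 were picked out, where chance gives about 5.4 at 1 in 20. On prep 1, srb-11 had -5.64 while the other arrays lay between -1.13 and -0.26, and sre-50 had -2.91 against -0.041 to 0.18. On prep 2, sra-30 had 0.49 against -0.70 to -0.54. Prep 4 was the one far from the others for 4 genes. There sra-7 had -0.78 against 0.13 to 0.24, srb-17 had -0.43 against 0.127 to 0.131, sre-5 had -0.69 against -0.13 to -0.019, and sra-33 had 0.083 against -0.13 to -0.10. None of the 7 genes was called in the fit with all arrays. Without prep 2 sra-30 was called, at -0.63 against -0.35 with all arrays (limma adjusted p = 0.026), and srb-11 was called without prep 1, at -0.82 (limma adjusted p = 0.014).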

How the results depend on the processing

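The family medians moved by less than the SD of their array medians under every alternative run. The srb median, -0.011 with an SD of 0.218, changed sign within that range. It was 0.014 with array weights, 0.016 for genes with 1 probe, 0.108 without prep 2 and 0.128 without prep 4. No paired analysis was possible because all 4 arrays form 1 group. The 7 positive and 6 negative calls in the superfamily lay between 3 and 8 and between 3 and 5 when 1 prep was left out. A minimum mean size of 1 left 3 positive and 2 negative calls, and 2132 of the 6639 genes called in all. Without 1 prep, 4954 to 5815 genes were called in all. The planned block for the title date could not be run, because duplicateCorrelation gives no estimate for 3 dates over 4 arrays. A block with a correlation of -0.023 from a grid was chosen after seeing the data, and only 1 pair of arrays shares a date. The consecutive dates of preps 1 and 2 were treated as separate in it. All 13 calls remained under centring, scaling, both other array minimums, array weights, that block, the median of probes and genes with 1 probe. Each of the 13 genes has 1 probe and values on all 4 arrays. Both array minimums and both probe settings therefore left their own values unchanged and could alter only statistics shared over genes. That block, with a correlation of -0.023, was close to the main fit. The robust prior kept 12, and leaving out a prep kept 5 to 8. Some genes that were not called changed sign around 0. For srb-6 the mean was -0.003 after centring, -0.023 after centring and scaling, and -0.029 with array weights. For sra-11 it was -0.023 after centring and scaling. With array weights srb-17 had 0.014 and srb-19 had 0.017. Leaving out each prep in turn put sra-6 between -0.149 and 0.247, sra-7 between -0.145 and 0.193, sra-9 between -0.134 and 0.044, sra-10 between -0.266 and 0.152, and sra-11 between -0.185 and 0.331. It put srb-3 between -0.36 and 0.206, srb-6 between -0.27 and 0.219, srb-17 between -0.058 and 0.128, and srb-19 between -0.335 and 0.147. No gene called in the fit with all arrays changed sign. With all preps kept, calls gained under other settings were srb-2 with 4 arrays as the minimum (limma adjusted p = 0.0496), the robust prior (0.048) and array weights (0.032), srb-11 after centring and scaling (0.0495), sra-8 with array weights (0.033), and, outside the families, tax-4 after centring (0.0448) and after centring and scaling (0.0434). Without prep 4, sra-8 was also called, at 0.78 (limma adjusted p = 0.019). Without signal intensities, spots close to background cannot be told apart from spots with a clear signal.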

Other observations

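Outside the 107 genes, a pair of probes was annotated to 2 genes of the families each. The probe of sra-34 and sra-36, on chromosome II, had 0.49, 0.068, 0.39 and 0.18 on preps 1 to 4. The probe of srb-8 and srb-9, on chromosome III, had 1.07, -0.52 and 0.69 on preps 1, 3 and 4 and no value on prep 2, while the probe of srb-9 alone was positive on all 4 arrays.

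Tandem clusters differed in how far their genes spread. The 5 tested genes of the srab cluster from srab-9 to srab-7 on chromosome V had means between 0.11 and 0.18. In the srb cluster of chromosome II the means of 7 genes lay between -1.09 and 2.57. These clusters were picked after their values were seen.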
